A study of Mus musculus with 6 samples.

Results

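Guanylate-binding proteins (GBPs) and immunity-related GTPases (IRGs) are 2 families of interferon-inducible GTPases, and 10 of their genes were followed in E0771 cells after contact with T cells. The 10 rows were taken by gene symbol from the 28063 rows of the deposited count table. They are the 5 GBP genes Gbp2, Gbp3, Gbp6, Gbp7 and Gbp9 and the 5 IRG genes Iigp1, Igtp, Irgm1, Irgm2 and Ifi47. E0771 is a mouse mammary carcinoma line, and RNA sequencing covered 6 libraries in 3 groups of 2. Malt1_PD cells carried a mutant of Malt1 named PD in the labels, without the name in full. Malt1_WT cells carried the wild-type form, and Vector cells a control vector. Before lysis, every group spent 12 h with activated CD8 T cells, 3 of them for each tumour cell, and then 6 h after washing and reseeding. No library without T cell contact was analysed here, so the values compare populations after contact and do not measure induction by T cells. Each group is a cell population of its own. An effect of the construct and another difference between populations therefore cannot be told apart. Whether the 2 libraries of each group stem from separate cultures is not stated, so the p-values reflect a spread that may be technical.

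The genes lie in clusters, given here from GENCODE release M21 (GRCm38). Gbp7 (chromosome 3, 142530342 to 142550149), Gbp3 (142560026 to 142573209) and Gbp2 (142620602 to 142638008) lie in this order on the plus strand. Gbp2b, not a member, lies between Gbp3 and Gbp2. Gbp9 (chromosome 5, 105077630 to 105139539) and Gbp6 (105270702 to 105293698) lie on the minus strand of a second GBP cluster. On chromosome 11, Irgm1 (48861968 to 48871683, minus strand) and Ifi47 (49076587 to 49096974, plus strand) are in a first group of IRG genes. Igtp (58199556 to 58207591) and Irgm2 (58199618 to 58222782) are in a second group, and their annotated spans overlap. Iigp1 (chromosome 18, 60376027 to 60392634) is the only member on its chromosome.

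Both families are classic targets of interferon-gamma, the cytokine that activated CD8 T cells release. Interferon-gamma binds the receptor IFNGR1-IFNGR2, and the kinases JAK1 and JAK2 pass the signal to the nucleus, where gamma-activated sequences (GAS) in DNA are bound. The transcription factor IRF1, itself induced, binds interferon-stimulated response elements (ISRE). In mice, GBPs and IRGs assemble on membranes around intracellular parasites and bacteria and break them open. Irgm1, Irgm2 and Igtp encode the regulatory IRGs, which keep the effector IRGs from attacking the cell's own membranes, and Iigp1 and Ifi47 encode effector IRGs.

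Promoter sequence was available from RefSeq (GRCm38.p6) for 7 of the 10 genes. Gbp6, Gbp9 and Iigp1 have no entry in that table. The windows run from 250 bases before to 50 after an annotated start, and Gbp3 has 2 such starts. They were searched on both strands for the ISRE core (GAAA, any 2 bases, GAAA) and the GAS core (TTCNNNGAA), allowing overlaps. An ISRE core was found in 6 of the 7 genes (Gbp2, Gbp3, Gbp7, Igtp, Irgm1 and Irgm2), against 3.44% of all 32851 windows of the same length. A GAS core was found in 3 of them (Gbp7, Igtp and Irgm2), against 8.3% of all windows. Ifi47 and the second Gbp3 start had neither. The 120 bases before the start are shown for the 6 genes with a match, because the members' shared sequence lies there. Starts are those of RefSeq and can differ from the GENCODE spans above. The stretches of Irgm1 and Irgm2 lie inside those spans, and those of Gbp2 and Gbp3 partly so. Capitals mark the ISRE and GAS cores.
Gbp2 (chr3:142620543-142620662, plus strand): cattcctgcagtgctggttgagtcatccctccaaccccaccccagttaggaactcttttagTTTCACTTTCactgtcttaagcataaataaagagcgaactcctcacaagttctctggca
Gbp3, first start (chr3:142559924-142560043, plus strand): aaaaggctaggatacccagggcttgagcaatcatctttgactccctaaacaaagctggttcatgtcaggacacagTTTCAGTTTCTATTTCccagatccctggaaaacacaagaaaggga
Gbp7 (chr3:142530216-142530335, plus strand): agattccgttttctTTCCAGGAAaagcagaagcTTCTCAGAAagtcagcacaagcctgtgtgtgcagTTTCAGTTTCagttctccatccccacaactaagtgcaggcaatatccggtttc
Igtp (chr11:58199436-58199555, plus strand): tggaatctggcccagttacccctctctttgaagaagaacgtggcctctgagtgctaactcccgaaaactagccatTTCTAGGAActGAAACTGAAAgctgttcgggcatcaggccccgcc
Irgm1 (chr11:48871421-48871540, minus strand): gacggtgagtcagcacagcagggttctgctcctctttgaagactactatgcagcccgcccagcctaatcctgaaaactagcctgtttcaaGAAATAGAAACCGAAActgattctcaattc
Irgm2 (chr11:58214857-58214976, plus strand): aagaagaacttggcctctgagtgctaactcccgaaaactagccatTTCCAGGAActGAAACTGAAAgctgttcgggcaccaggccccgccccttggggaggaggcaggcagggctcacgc

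In the 3 GBP genes the ISRE core is on the other strand (TTTC, 2 bases, TTTC) and begins 59, 45 and 53 bases before the start in Gbp2, Gbp3 and Gbp7. In the 3 IRG genes it is on the strand of the gene and begins 34, 30 and 64 bases before the start in Igtp, Irgm1 and Irgm2. Gbp3 and Irgm1 each have a second, overlapping core. Igtp and Irgm2 share more than the motif: aligned on it, 87 of 90 bases are identical. In both, the GAS core stands 2 bases ahead of the ISRE core. That joined form was searched on both strands after these windows had been seen, and 5 of the 32851 windows hold it. All 5 are on chromosome 11, at the IRG genes Igtp, Irgm2, Tgtp1 and Tgtp2 and at Gm12185. A match is a description of the letters and not evidence of a bound site.

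**Figure D1:**
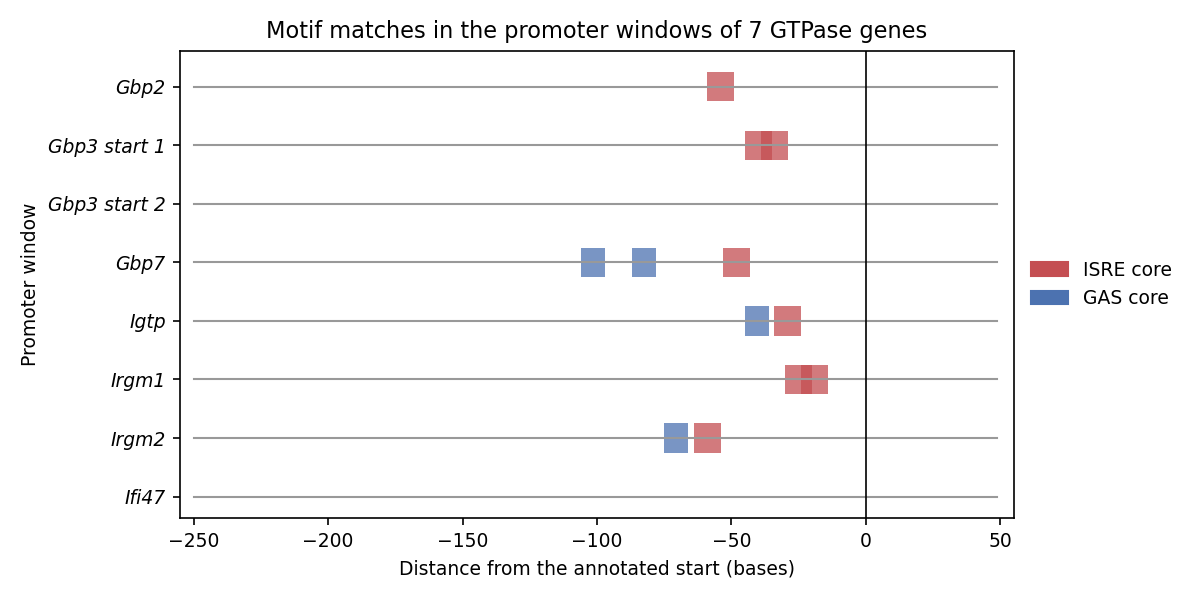
Positions of ISRE cores (red) and GAS cores (blue) in 8 promoter windows of 7 GTPase genes, as distance in bases from the annotated start (0); lines show the extent of each window. The 6 genes with an ISRE core have it within 64 bases before the start, and Ifi47 and the second Gbp3 start have no match.

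Libraries ranged from 14045390 to 19962014 counts. A floor of 3 counts, which covers counting error only, came to 0.150 to 0.214 counts scaled to library size (CPM). All 10 genes passed the filter on low counts, with 354 to 6185 counts over the 6 libraries. Malt1 itself was higher in the engineered cells, at 106 and 95.7 CPM in Malt1_PD libraries, 67.2 and 82.1 CPM in Malt1_WT libraries, and 23.8 and 31.3 CPM in Vector libraries. Its log2 fold change against Vector was 1.87 ± 0.15 SE in Malt1_PD (edgeR adjusted p = 0.0265). In Malt1_WT it was 1.44 ± 0.15 SE (edgeR adjusted p = 0.0920), so even this difference was not called there. The replicate 1 libraries of Malt1_WT and Vector held fewer counts on long transcripts. The 958 longest genes among those compared took 11% and 12.6% of counts in Malt1_WT replicates 1 and 2, and 9.78% and 12.8% in Vector. In Malt1_PD the shares were 12.2% and 12.1%. Of the T cell markers only Lck passed the filter, at 1.90 and 1.72 CPM in Malt1_PD, 1.28 and 1.35 CPM in Malt1_WT libraries, and 1.80 and 1.96 CPM in Vector (edgeR adjusted p = 0.784 in Malt1_WT against Vector, where its groups did not overlap). The others were near the floor: the 10 T cell markers with a row among 14 listed summed to at most 20 counts in a library (0.285 to 0.997 CPM), and Cd8a had 1 count in all. Ifng itself had 1 count in the 6 libraries. Of the epithelial markers, Krt8 stood at 108 to 124 CPM and Epcam at 6.16 to 8.97 CPM, while Cdh1 and Krt18 stayed below 1 CPM. The mesenchymal markers differed: Vim stood at 3776 to 4645 CPM and Fn1 had 10 counts in all. Col1a1 stood at 56.8 and 53.0 CPM in Malt1_PD, 54.8 and 61.3 CPM in Malt1_WT libraries, and 31.0 and 36.4 CPM in Vector (edgeR adjusted p = 0.155 in Malt1_PD and 0.192 in Malt1_WT against Vector).

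Per length, in CPM per kilobase of gene (RPKM), the 10 genes spanned a wide range of levels that kept nearly the same order in all 3 groups. Averaged over the 6 libraries, the order was Igtp (13.4 RPKM), Gbp2 (12.5), Irgm1 (10.4), Irgm2 (8.25), Gbp3 (6.10), Gbp7 (5.36), Ifi47 (3.45), Iigp1 (1.13), Gbp9 (0.843) and Gbp6 (0.581). The regulatory IRGs Igtp, Irgm1 and Irgm2 were thus among the 4 highest, and the effector IRG genes Ifi47 and Iigp1 lay below them. Neighbours in this order overlapped across libraries for Igtp and Gbp2, Gbp2 and Irgm1, Gbp3 and Gbp7, Iigp1 and Gbp9, and Gbp9 and Gbp6. Libraries did not overlap between Irgm1 and Irgm2, Irgm2 and Gbp3, Gbp7 and Ifi47, or Ifi47 and Iigp1. The last place of Gbp6 is less certain, because 59.1% of the 150-base windows in its transcripts occur in other genes. The ranks were identical in Malt1_WT and Vector. In Malt1_PD only the first places were exchanged, with Gbp2 (12.8 RPKM) above Igtp (12.6 RPKM). Summed over the 10 genes, the level was 213 and 212 CPM in Malt1_PD, 225 and 220 CPM in Malt1_WT libraries, and 219 and 228 CPM in Vector. Both Malt1_PD libraries lay below the other 4, by a few percent. Of all single genes tested, 19.7% were lower with no overlap in Malt1_PD against Vector, and 16.1% in Malt1_PD against Malt1_WT. The sum of the GBP genes overlapped, at 86.9 and 90.3 CPM in Malt1_PD against 81.8 and 95.2 CPM in Vector. A difference in the sums was not tested.

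**Figure D2:**
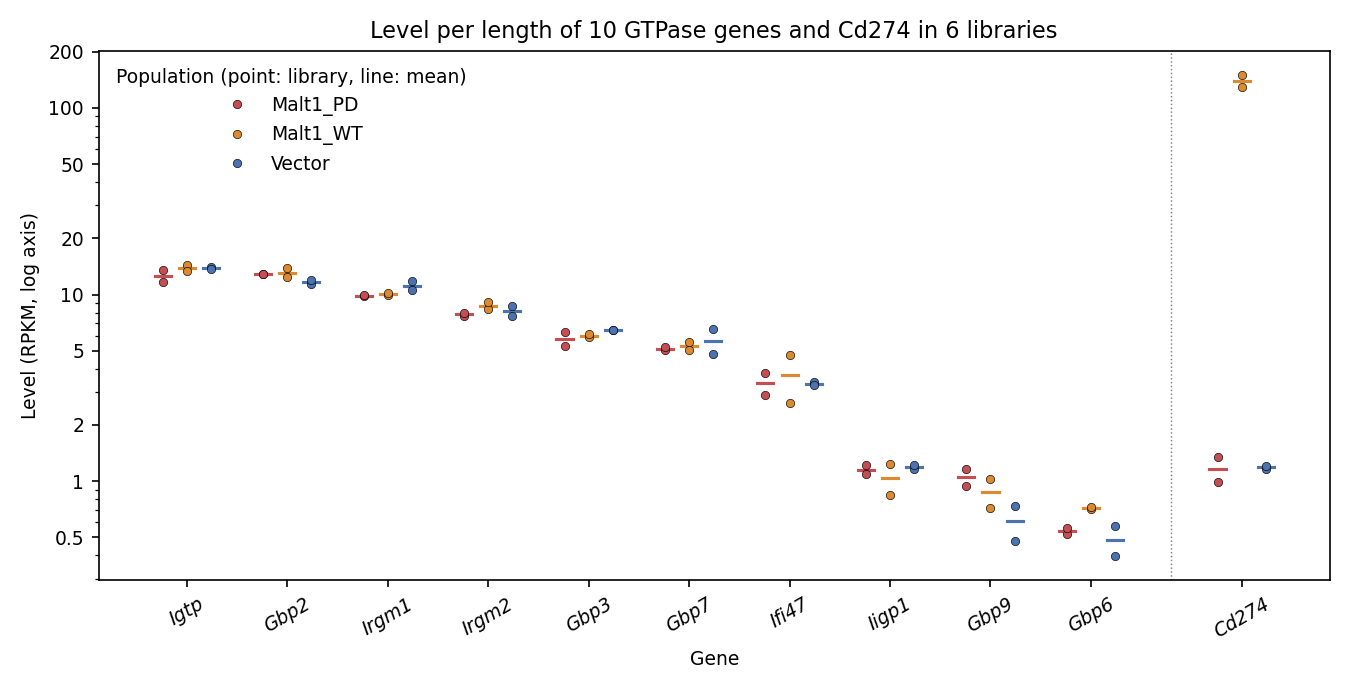
Level per length (RPKM, log axis) of the 10 GTPase genes, ordered by mean level, and of Cd274, in Malt1_PD, Malt1_WT and Vector libraries (points; short lines are group means of 2). The GTPase genes keep their order from Igtp (mean 13.4 RPKM) to Gbp6 (0.581 RPKM) in all populations, except that Gbp2 is above Igtp in Malt1_PD, while Cd274 stands apart in Malt1_WT at 129 and 150.5 RPKM.

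In Malt1_WT against Vector, none of the 10 GTPase genes was called by edgeR's quasi-likelihood test, where 1 of 14675 genes was called in all (0.00681%). None had an unadjusted p under 0.05, a share that was 7.09% over all genes, and DESeq2 and limma-voom called none of the 10. The gene called was Cd274, which encodes the checkpoint ligand PD-L1 and is itself a textbook interferon-gamma target. It stood at 469 and 545 CPM in Malt1_WT, against 4.22 and 4.37 CPM in Vector, which is 118-fold higher (log2 fold change 6.88 ± 0.16 SE, edgeR adjusted p = 1.24e-06). The GTPase genes had log2 fold changes from -0.17 to 0.56 with a median of 0.05, against a median of 0.00 (interquartile range -0.12 to 0.13) over all genes tested. Of the 10, 6 lay above 0 and 4 below, where 49.7% and 50.3% of all genes did.

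Among the GBP genes in Malt1_WT against Vector, Gbp2, whose product coats parasite vacuoles in mice, stood at 34.7 and 31.1 CPM in Malt1_WT, against 28.7 and 30.3 CPM in Vector. Both Malt1_WT libraries were above both Vector libraries, by a log2 fold change of 0.16 ± 0.10 (edgeR adjusted p = 0.806). Gbp6, from the chromosome 5 cluster, had the largest difference of the 10, at 4.20 and 4.34 CPM in Malt1_WT, against 2.36 and 3.42 CPM in Vector. Its groups did not overlap either, and its log2 fold change was 0.56 ± 0.25 (95% interval -0.01 to 1.13, edgeR adjusted p = 0.700). It was 0.32 without Vector replicate 1 and 0.86 without Vector replicate 2, and Gbp9 was larger without Malt1_WT replicate 1 (0.75 for Gbp9, 0.58 for Gbp6) or Vector replicate 2. Of the 150-base windows in Gbp6 transcripts, 59.1% occur exactly in Gbp10 or in Gm43302, a gene that overlaps Gbp6, so its count is less certain. Gbp10 and Gm43302 had 3 and 1 counts over all libraries. Gbp9, its cluster neighbour, stood at 3.70 and 5.29 CPM in Malt1_WT, against 2.48 and 3.81 CPM in Vector, with overlap (0.53 ± 0.29, edgeR adjusted p = 0.760; 0.24 to 0.88 with single libraries left out). Gbp3 and Gbp7, from the chromosome 3 cluster, lay slightly lower. Gbp3 stood at 19.3 and 19.9 CPM in Malt1_WT, against 21.2 CPM in both Vector libraries (-0.11 ± 0.12, edgeR adjusted p = 0.912). Gbp7 stood at 31.2 and 28.3 CPM in Malt1_WT, within the 27.1 and 36.5 CPM of Vector (-0.10 ± 0.15, edgeR adjusted p = 0.935).

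Among the IRG genes in the same comparison, Irgm1, the regulatory IRG linked to autophagy, was the most abundant by reads. It stood at 57.8 and 59.5 CPM in Malt1_WT, against 68.5 and 61.1 CPM in Vector, with no overlap (-0.14 ± 0.09, edgeR adjusted p = 0.806). The other regulatory IRGs overlapped. Irgm2 stood at 30.8 and 33.6 CPM in Malt1_WT, against 28.3 and 32.2 CPM in Vector (0.09 ± 0.11). Igtp, which encodes the IRG also called Irgm3, stood at 29.2 and 27.0 CPM in Malt1_WT, against 28.4 and 27.6 CPM in Vector (0.01 ± 0.11, 95% interval -0.25 to 0.26). For Igtp this interval corresponds to a fold of 0.841 to 1.20. The effector gene Iigp1 stood at 2.63 and 3.84 CPM in Malt1_WT, against 3.60 and 3.81 CPM in Vector (-0.17 ± 0.25). Ifi47 was the least even gene, at 11.7 and 6.48 CPM in Malt1_WT, against 8.39 and 8.07 CPM in Vector (0.12 ± 0.28); the Malt1_WT libraries lay on either side of both Vector values. Groups did not overlap for 4 of the 10 genes, close to the share over all genes tested, 32.6%. Gbp2 and Gbp6 were higher (15.5% of all genes) and Gbp3 and Irgm1 lower (17.1%).

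In Malt1_PD against Vector, again none of the 10 genes was called by edgeR, DESeq2 or limma-voom; edgeR called 1 of all genes (0.00681%), Malt1. At an unadjusted p under 0.05 there was 1 member, Gbp9, against 8.61% of all genes. Gbp9 stood at 6.01 and 4.87 CPM in Malt1_PD, against 2.48 and 3.81 CPM in Vector. Both Malt1_PD libraries were above both Vector libraries, with the largest log2 fold change of the 10 at 0.79 ± 0.29 (95% interval 0.13 to 1.45, edgeR adjusted p = 0.527). Without Vector replicate 2 Gbp9 was called (1.14 ± 0.31, edgeR adjusted p = 0.0435), in a fit that leaves Vector a single library, assumed to vary like the other groups. That fit called 928 of 15336 genes. With single libraries left out, the log2 fold change of Gbp9 ran from 0.51 to 1.14. Over all 14 alternatives its adjusted p ran from 0.0435 to 1.00. The 10 genes had a median of -0.06, with 4 above 0 (49.7% of all genes) and 6 below (50.3%), against 0.00 over all genes (interquartile range -0.13 to 0.14).

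Of the other GBP genes in Malt1_PD against Vector, Gbp2 stood at 32.3 CPM in both Malt1_PD libraries, against 28.7 and 30.3 CPM in Vector (0.13 ± 0.10, edgeR adjusted p = 0.761). Gbp3 stood at 17.2 and 20.6 CPM in Malt1_PD, against 21.2 CPM in both Vector libraries (-0.16 ± 0.12). These groups did not overlap. Gbp6 stood at 3.10 and 3.33 CPM in Malt1_PD, inside the 2.36 and 3.42 CPM of Vector (0.15 ± 0.25), and Gbp7 at 28.3 and 29.2 CPM, inside the 27.1 and 36.5 CPM of Vector (-0.15 ± 0.15). Of the IRG genes, 4 of 5 lay below 0. Irgm1 stood at 56.9 and 57.8 CPM in Malt1_PD, against 68.5 and 61.1 CPM in Vector (-0.17 ± 0.09, edgeR adjusted p = 0.642). Igtp stood at 27.2 and 23.6 CPM in Malt1_PD, against 28.4 and 27.6 CPM in Vector (-0.14 ± 0.11, edgeR adjusted p = 0.769). Neither gene's groups overlapped. Irgm2 was at 28.4 and 29.4 CPM in Malt1_PD, against 28.3 and 32.2 CPM in Vector (-0.06 ± 0.11). Iigp1 was at 3.80 and 3.39 CPM in Malt1_PD, against 3.60 and 3.81 CPM in Vector (-0.05 ± 0.25). Ifi47 was at 9.36 and 7.13 CPM in Malt1_PD, around the 8.39 and 8.07 CPM of Vector (0.00 ± 0.28). In all, groups did not overlap for 5 of the 10 genes, against 38.1% of all genes tested, with 2 higher (18.4%) and 3 lower (19.7%). The comparisons of Malt1_PD and of Malt1_WT with Vector share the Vector libraries, so a like direction in both, as for Gbp2, Gbp3 and Irgm1, is not independent.

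**Figure D3:**
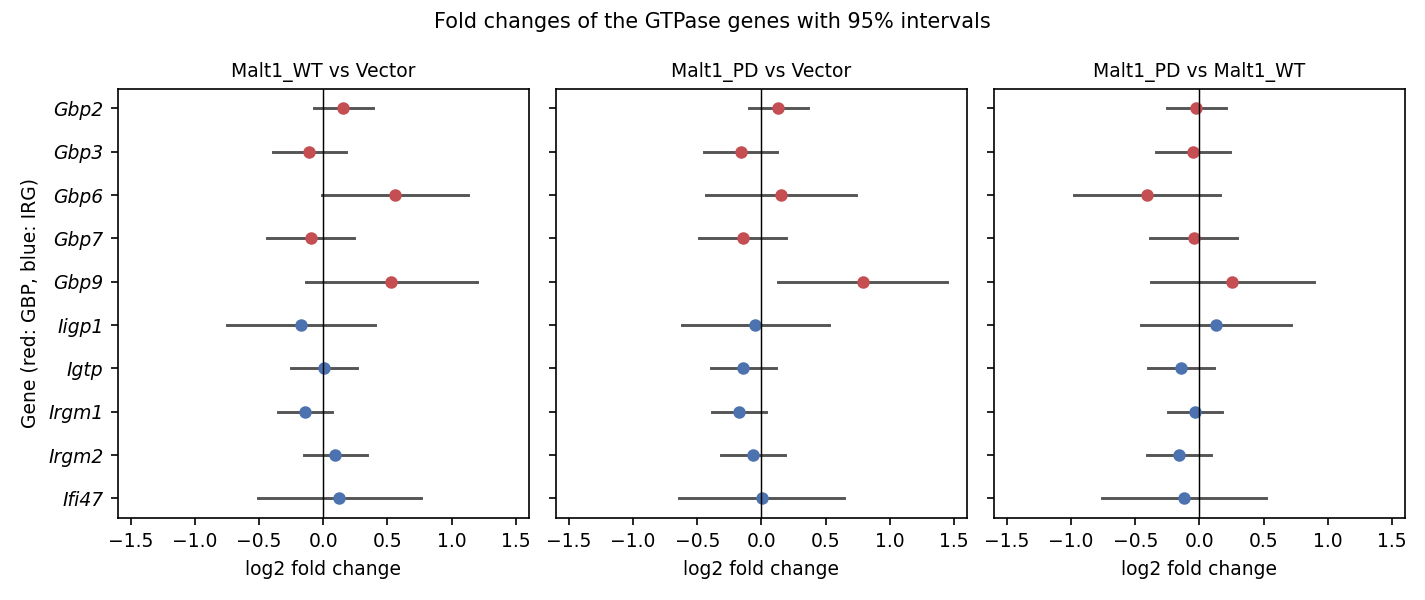
Log2 fold change (points) and 95% interval (lines) of each GTPase gene from edgeR in Malt1_WT against Vector, Malt1_PD against Vector and Malt1_PD against Malt1_WT; GBP genes in red, IRG genes in blue. All intervals include 0 except that of Gbp9 in Malt1_PD against Vector (0.13 to 1.45), and those of the low genes Gbp6, Gbp9, Iigp1 and of Ifi47 are the widest.

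Malt1_PD against Malt1_WT compares the 2 populations that carry the forms, and no GTPase gene was called here either. Malt1 itself was higher in Malt1_PD and was not called (log2 fold change 0.43 ± 0.14 SE, edgeR unadjusted p = 0.0182). EdgeR called 1 of 14675 genes (0.00681%), Cd274, at 4.87 and 3.57 CPM in Malt1_PD against 469 and 545 CPM in Malt1_WT. None of the 10 genes had an unadjusted p under 0.05, against 1.92% of all genes, and DESeq2 and limma-voom called none. The median was -0.05 (0.00 over all genes, interquartile range -0.08 to 0.09), with 2 genes above 0 (49.5% of all genes) and 8 below (50.5%). Groups did not overlap for 2 genes, both lower, against 32.1% of all genes in either direction and 16.1% lower. Gbp6 stood at 3.10 and 3.33 CPM in Malt1_PD, against 4.20 and 4.34 CPM in Malt1_WT (-0.41 ± 0.25). Irgm2 stood at 28.4 and 29.4 CPM in Malt1_PD, against 30.8 and 33.6 CPM in Malt1_WT (-0.16 ± 0.11). The most abundant genes had narrower intervals: -0.24 to 0.18 for Irgm1, -0.26 to 0.21 for Gbp2, -0.40 to 0.11 for Igtp and -0.41 to 0.09 for Irgm2. That of Gbp7, of like abundance, was -0.39 to 0.29. Across the same libraries Cd274 differed by -6.91 ± 0.16 on the log2 scale. The intervals of Gbp6 (-0.98 to 0.16), Gbp9 (-0.38 to 0.89), Iigp1 (-0.45 to 0.71) and Ifi47 (-0.76 to 0.52) were wider. Differences within these intervals are not excluded by the values, and no smallest detectable difference was computed.

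The spread between libraries of a group differed by gene. Over all genes compared, the difference between replicates 1 and 2 moved with gene length in Malt1_WT (Spearman's rho -0.53 across genes) and Vector (-0.67), with 0.05 in Malt1_PD; genes are not independent replicates. In Vector, replicate 1 was below replicate 2 for Gbp9 (by a log2 difference of -0.60), Gbp6 (-0.51) and Gbp7 (-0.43), GBP genes of 5173 to 5954 nt. Genes of like length (within 10%) had median differences of -0.06 to -0.09 there. Irgm1, at 5810 nt, went the other way in Vector (0.16, against -0.09 for genes of like length). In Malt1_WT the widest gaps were those of Ifi47 (0.85), Iigp1 (-0.52) and Gbp9 (-0.50), where genes of like length had medians between -0.02 and 0.09. In Malt1_PD, Ifi47 (0.39), Gbp9 (0.30) and Gbp3 (-0.26) had the widest gaps and genes of like length had medians from -0.011 to 0.0032. With the length trend removed from every library, the fold change of Gbp9 in Malt1_PD against Vector was 0.79 ± 0.26 (edgeR adjusted p = 0.229) and that of Gbp6 in Malt1_WT against Vector 0.56 ± 0.24 (edgeR adjusted p = 0.414). Gbp7 depended on the libraries used: without Vector replicate 1 and Malt1_WT replicate 1, the pair low on long transcripts, it was called lower in Malt1_WT (-0.37 ± 0.12, edgeR adjusted p = 0.0466) and in Malt1_PD (-0.34 ± 0.11, edgeR adjusted p = 0.0150). That fit sets single libraries of Malt1_WT and Vector against each other, takes its spread from the Malt1_PD pair, and called 936 and 2080 genes in all; over the 14 alternatives Gbp7's adjusted p ran from 0.0466 to 1.00 in Malt1_WT and from 0.0150 to 1.00 in Malt1_PD.

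**Figure D4:**
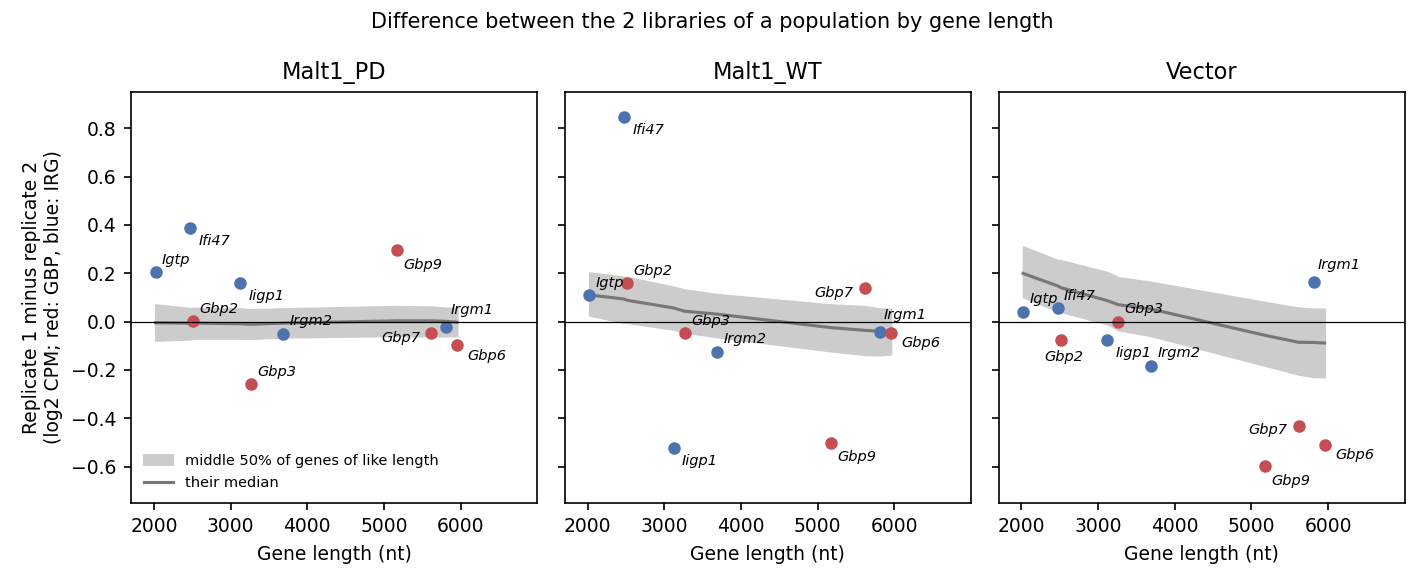
Difference in log2 CPM between replicate 1 and replicate 2 of Malt1_PD, Malt1_WT and Vector for each GTPase gene (GBP red, IRG blue) by gene length in nt; the grey line and band are the median and interquartile range of genes within 10% of that length. In Vector, Gbp9, Gbp6 and Gbp7 lie between -0.60 and -0.43, below the band, and Ifi47 has the widest gap in Malt1_WT (0.85).

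Pairs of the 10 genes varied in like and in opposite directions across the 6 libraries. Of the 45 pairs of members, 24 had a positive Pearson correlation of log2 CPM over the 6 libraries and the median was 0.01, from -0.85 for Gbp9 and Irgm1 to 0.79 for Gbp6 and Irgm2. The points share library size and the length trend. The mean of the centred members was lowest in Vector replicate 1 (-0.12) and lay between -0.03 and 0.05 in the other libraries. That low value rests mainly on the low-count genes Gbp9 (-0.73) and Gbp6 (-0.50). In the same library Gbp7 (-0.14), Gbp2 (-0.13) and Irgm2 (-0.10) also lay below their means. Irgm1 (0.19), Gbp3 (0.09), Igtp (0.07) and Iigp1 (0.05) lay above theirs. How closely genes chosen for likeness to this mean follow any single member was not tested. Such genes are the highest of 9566 correlations over 6 libraries, so their r values are high through selection. Of 9566 other genes whose log2 CPM averaged 3 or more, the 5 most like this mean profile were Tgfb3 (r = 0.99, 6 libraries), Cask (0.99), Col18a1 (0.99), Spire1 (0.98) and Qrich1 (0.98), all lowest in Vector replicate 1; 4 of them are 7021 to 9145 nt long and Tgfb3 is 3383 nt.

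Other genes of the 2 families mostly had counts near the floor. How multi-mapped reads were counted is not stated. A low count may therefore understate a gene that shares sequence with another, as Gbp10 does with Gbp6. Of 21 further family genes listed, 20 had a row and 4 passed the filter. The other 16 had between 2 and 35 counts over the 6 libraries and at most 0.886 CPM in a library. They include Gbp10 and Gbp11 of the chromosome 5 cluster, the chromosome 3 gene Gbp2b, and Tgtp1 and Tgtp2, effector IRG genes whose windows hold the joined GAS and ISRE form. Tgtp2 had 14 and 8 counts in Malt1_PD, 5 and 1 in Malt1_WT, and 3 and 1 in Vector, and did not pass the filter. Gbp5, which promotes inflammasome activity in mice, stood at 16.6 and 16.8 CPM in Malt1_PD, 17.8 and 18.2 CPM in Malt1_WT libraries, and 15.4 and 19.3 CPM in Vector. It overlapped between each Malt1 form and Vector (-0.06 ± 0.14 in Malt1_PD, 0.05 ± 0.14 in Malt1_WT). Irgq, an IRG relative, stood at 35.4 and 36.5 CPM in Malt1_PD, 37.8 and 43.2 CPM in Malt1_WT libraries, and 26.8 and 35.5 CPM in Vector. Its log2 fold change in Malt1_WT against Vector was 0.38 ± 0.14 (edgeR adjusted p = 0.631), and its lower Vector value was again in replicate 1. Gm4951 and Gbp4 had means of 2.39 CPM and 0.420 CPM in Malt1_WT, and neither was called.

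Upstream of the GTPases, the 21 receptor, JAK-STAT and IRF genes listed were all measured and none was called in any comparison by edgeR. In Malt1_WT against Vector 1 of them had an unadjusted p under 0.05, the phosphatase gene Ptpn2, whose product restrains JAK signalling (lower, as 3.8% of all genes were; -0.32 ± 0.09, edgeR adjusted p = 0.497). In Malt1_PD against Vector there were 7, of which 6 were lower, against 8.61% of all genes in either direction and 4.88% lower at that p. Usp18 and Socs3, feedback inhibitors of interferon and cytokine signalling, were at -0.45 ± 0.12 and -0.30 ± 0.07 in Malt1_PD against Vector (edgeR adjusted p = 0.369 and 0.327). The receptor genes lay on opposite sides, with Ifngr1 at 0.35 ± 0.13 and Ifngr2 at -0.28 ± 0.10 in Malt1_PD against Vector (edgeR adjusted p = 0.525 and 0.501). Irf1, the factor that binds the ISRE core, stood at 67.2 and 55.4 CPM in Malt1_PD, 67.5 and 63.4 CPM in Malt1_WT libraries, and 64.7 and 58.6 CPM in Vector, with overlap throughout. The kinase genes Jak1 and Jak2 and the inhibitor gene Socs1 overlapped too, with log2 fold changes against Vector between -0.17 and -0.02. Many others in the list did not. In Malt1_WT against Vector 11 of the 21 were lower with no overlap (17.1% of all genes) and 3 higher (15.5%). In Malt1_PD against Vector 11 were lower with no overlap (19.7% of all genes) and 2 higher (18.4%). A difference between this list and all genes was not tested.

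The other antiviral genes, among them the dynamin-like GTPase genes Mx1 and Mx2, had 5 of 11 lower at an unadjusted p under 0.05 in Malt1_PD against Vector (4.88% of all genes), and none called (median -0.30). Oas1a and Oas3, which encode sensors of double-stranded RNA, were at -0.42 ± 0.09 and -0.46 ± 0.10 (edgeR adjusted p = 0.279 for both). Rsad2, which encodes viperin, was at -0.32 ± 0.08 (edgeR adjusted p = 0.369). In the same contrast the 10 GTPase genes had a median of -0.06, and none was lower at that p; a difference between the lists was not tested. In Malt1_WT against Vector 1 of the 11 was lower at an unadjusted p under 0.05 (3.8% of all genes), Oas3 (-0.29 ± 0.10, edgeR unadjusted p = 0.0203), with a median of -0.03. In Malt1_PD against Malt1_WT none of the 11 was called, 9 lay below 0 and the median was -0.22. There 7 were lower with no overlap (16.1% of all genes), and 2 were lower at an unadjusted p under 0.05 (0.838% of all genes), Rsad2 (-0.41 ± 0.08) and Oas1a (-0.22 ± 0.09), both with an edgeR adjusted p of 1.00.

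**Figure D5:**
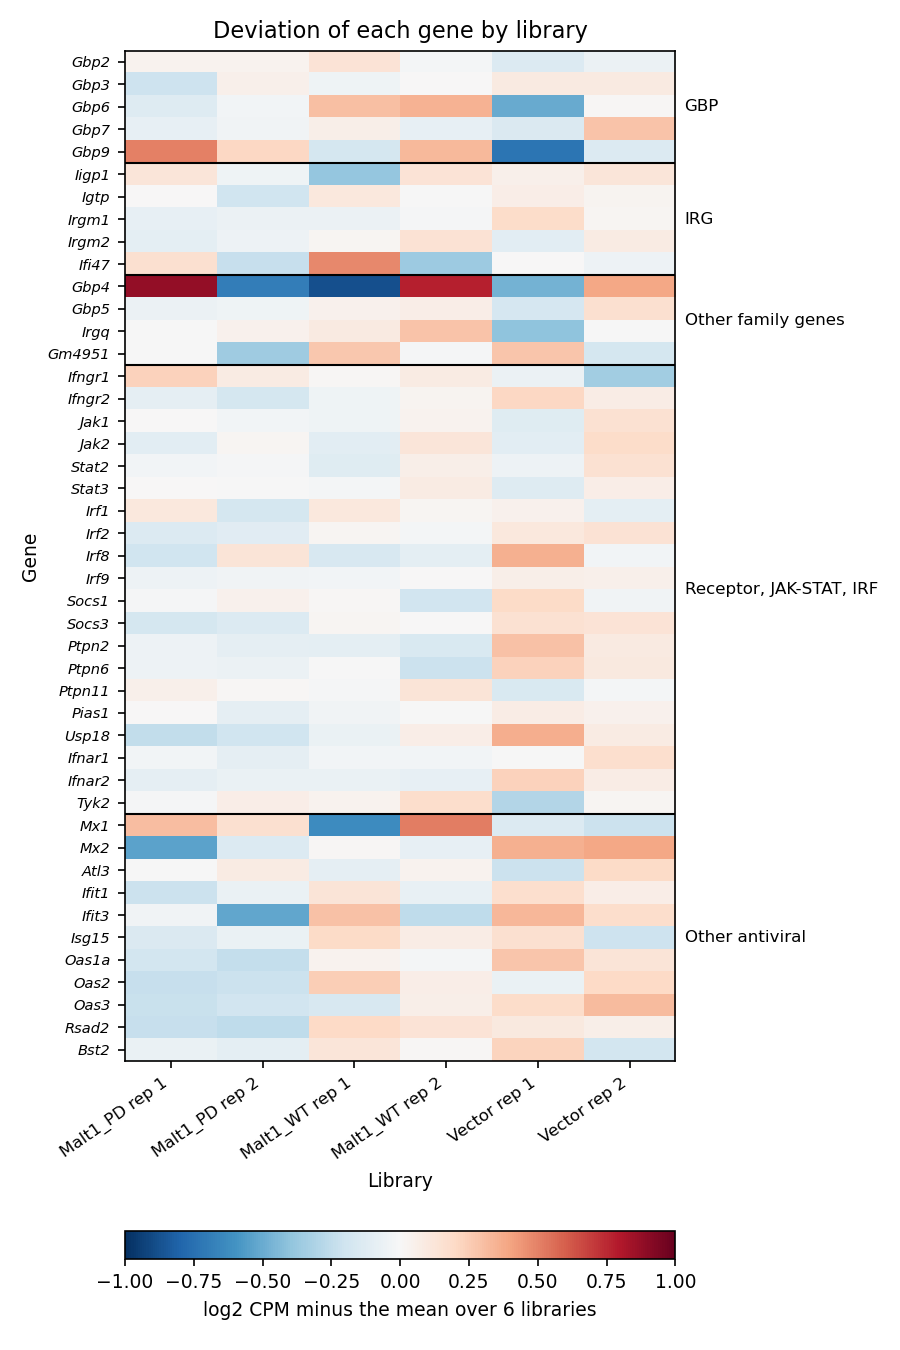
Log2 CPM minus the gene's mean over the 6 libraries, by library (columns: Malt1_PD, Malt1_WT, Vector), for the 5 GBP and 5 IRG genes, 4 other family genes, 20 of the 21 receptor, JAK-STAT and IRF genes and 11 other antiviral genes; red is above and blue below the mean, and colours saturate at 1. The deviations of the GTPase genes range from -0.73 (Gbp9, Vector replicate 1) to 0.51 (Gbp9, Malt1_PD replicate 1) with members of both signs in every library. Usp18 and Rsad2 are below their mean in both Malt1_PD libraries, as are the members Gbp6, Gbp7, Irgm1 and Irgm2.

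Genes whose products act with the GTPases were measured as well. IRGs and GBPs reach their target membranes with help from the autophagy conjugation enzymes, and none of the 20 autophagy and ubiquitin genes was called in any comparison by edgeR. In Malt1_WT against Vector 3 had an unadjusted p under 0.05, Atg12 (-0.34 ± 0.11), Map1lc3a (0.34 ± 0.12) and Tax1bp1 (-0.18 ± 0.07), against 7.09% of all genes. In Malt1_PD against Vector there was 1, Lgals8, a sensor of damaged vacuoles (-0.26 ± 0.11, edgeR adjusted p = 0.576), against 8.61% of all genes. Of 10 inflammasome and caspase genes, 8 were measured and none was called. Aim2, the cytosolic DNA sensor, stood at -0.20 ± 0.09 in Malt1_WT and -0.19 ± 0.09 in Malt1_PD against Vector, and Casp1 at 0.15 ± 0.12 and 0.26 ± 0.12. Of 6 prenylation genes, whose enzymes attach the lipid that anchors some GBPs, none was called, and the protease gene Rce1 was at 0.30 ± 0.10 in Malt1_PD against Malt1_WT (edgeR adjusted p = 1.00).

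No myeloid marker was called by edgeR in any comparison (lowest adjusted p = 0.413, in Malt1_PD against Vector). Their summed level was lower in all 4 Malt1 libraries than in both Vector libraries, a difference that was not tested. Of all single genes tested, 17.1% were lower with no overlap in Malt1_WT against Vector, and 19.7% in Malt1_PD against Vector. The 6 with a row among 7 listed summed to 15.4 and 15.5 CPM in Malt1_PD, 16.4 and 18.4 CPM in Malt1_WT libraries, and 22.6 and 19.7 CPM in Vector. Of the 3 that passed the filter, Cd14 (-0.54 ± 0.16) and Cd68 (-0.57 ± 0.19) lay below 0 in Malt1_PD against Vector and Lyz2 (0.06 ± 0.29) above. In Malt1_WT against Vector the values were -0.33 ± 0.15 for Cd14, -0.20 ± 0.19 for Cd68 and -0.35 ± 0.29 for Lyz2. The defining macrophage gene Adgre1 had at most 2 counts in a library, and the myeloid genes Csf1r and Itgam had at most 9 and 7. Which cells gave the reads of Cd14, Cd68 and Lyz2 was not tested. The part of the myeloid markers in the GTPase values was not tested either. In bulk RNA, the number of cells of a type and the RNA per cell cannot be told apart.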

How the data were processed

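RNA sequencing counts of 6 libraries were analysed. The authors deposited whole-number counts per gene, not normalised, with gene lengths. The submitters' processing notes name build GRCm38.p6, featureCounts 1.6.3, STAR 2.7.3a and Trim Galore 0.6.0. Per the labels' protocols, paired 150-base reads came from directional libraries. How strand and multi-mapped reads were counted is not stated there, which makes overlapping genes and near-identical copies less certain. Exons of Igtp share 162 bases with Irgm2, and 8.77% of 150-base windows of Gbp7 transcripts occur in a pseudogene. The 6 log2 RPKM columns were not used, since 4 carry repeated names. 25 symbols turned into dates were restored from gene identifiers, and 28056 of 28063 identifiers matched GENCODE M21.

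Counts were filtered with filterByExpr (14675 genes) and modelled in R 4.3.3 by the quasi-likelihood functions of edgeR 4.0.16 after TMM scaling. All 6 libraries entered, with 1 mean for each group and no covariate. P-values were two-sided and adjusted by Benjamini-Hochberg over all genes tested, with calls at an adjusted p under 0.05. The coefficient of variation was 10.1%, with 3 residual degrees of freedom. Standard errors come from the quasi-likelihood F. The same code was tested on simulated data. CPM and RPKM use TMM factors.

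The members and lists were chosen with earlier results of these data known. All 10 members, further family genes with a row, up to 3 genes per list with the smallest p, and 9 fixed genes could be named. Tgtp1, Tgtp2, Gbp10, Gbp11 and Gbp2b stand for the genes below the filter. Alternatives used DESeq2 1.42.0, limma 3.58.1 (voom), other scaling, no filter, the pair of groups compared, the replicate block, a length trend, a threshold of 0.10, and libraries left out. Values of 1 listed JAK-STAT gene are not reported here.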

Additional observations from a re-analysis of the deposited data

How the results depend on the processing

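Over 14 alternatives and 3 comparisons, 390 of the 420 fold changes of the 10 GTPase genes kept their direction and stayed uncalled, 3 were called and 27 changed sign, all from a log2 size of at most 0.17. The members called were 0 in each comparison. They became 1 (Gbp7) without the 2 libraries low on long genes in Malt1_WT and in Malt1_PD against Vector, and 0 to 1 (Gbp9, without Vector replicate 2) in Malt1_PD against Vector with single libraries left out. Over all genes, the 1 called in Malt1_WT against Vector became 113 with no filter, 28 with DESeq2, 54 with the length trend removed, 936 without the 2 libraries low on long genes, 4 at an adjusted p under 0.10, and 1 to 599 with single libraries left out. In Malt1_PD against Vector the 1 called became 188, 40, 95, 2080 and 3 in those settings, and 0 to 928. In Malt1_PD against Malt1_WT it became 12 with no filter and 358 without the 2 libraries. The cause was not tested. With the replicate number as a block the counts were 6 in Malt1_WT and 9 in Malt1_PD against Vector, no member was called, and Ifi47 in Malt1_PD against Vector was -0.0122 (-0.0141 with limma-voom). What the number marks is not stated. Deviations of replicate 1 correlated at 0.68 between Malt1_WT and Vector, but at 0.03 and -0.01 for Malt1_PD with each. Whether the number pairs the samples cannot be settled from these values.

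Signs changed with single libraries left out, over ranges in Malt1_WT against Vector of -0.30 to 0.14 for Gbp7, -0.49 to 0.0519 for Iigp1, -0.0482 to 0.0644 for Igtp and -0.34 to 0.52 for Ifi47. In Malt1_PD against Vector the ranges were -0.0880 to 0.45 for Gbp6, -0.35 to 0.0926 for Gbp7, -0.13 to 0.0366 for Iigp1, -0.15 to 0.0358 for Irgm2 and -0.21 to 0.19 for Ifi47. In Malt1_PD against Malt1_WT they were -0.10 to 0.0548 for Gbp2, -0.19 to 0.0706 for Gbp3, -0.12 to 0.0231 for Gbp7, -0.10 to 0.45 for Iigp1 and -0.51 to 0.35 for Ifi47. Without the 2 libraries low on long genes, Malt1_WT against Vector gave 0.0125 for Iigp1, -0.0271 for Igtp and -0.31 for Ifi47, Malt1_PD against Vector gave -0.0854 for Gbp6, and Malt1_PD against Malt1_WT gave 0.0546 for Gbp2, 0.0232 for Gbp7, -0.10 for Iigp1 and 0.34 for Ifi47. With library totals in place of TMM factors, level means moved by at most 0.869%.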
